A study of Mus musculus with 4 samples.

Results

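Enterocytes are the absorptive cells of the small-intestinal lining, and 172 of them were taken from 2011 epithelial cells of the distal small intestine of 8 mice. They were chosen by their own transcripts: a cell had a unique molecular identifier (UMI, 1 counted RNA molecule) of at least 2 of the 6 genes Sis, Enpep, Mttp, Dpep1, Chp2 and Maf. It also had at most 1 UMI of the division genes Mki67 and Top2a together and 0 UMIs of the stem cell gene Lgr5. Muc2, Zg16, Fcgbp and Clca1, which mark goblet cells, held under 1% of its UMIs, and Lyz1, Defa17 and Defa24, which mark Paneth cells, under 0.5%. All cells had at least 1000 UMIs, at least 500 genes, under 20% mitochondrial UMIs and at least 60% of hashtag counts in 1 hashtag. Of 437 cells with at least 2 of the 6 markers, 238 had too many division UMIs, 70 a Lgr5 UMI, 10 too many goblet UMIs and 11 too many Paneth UMIs, with some cells failing several limits.

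All mice were Lgr5-EGFP-IRES-CreERT2;Rosa26-mTmG and all received 4-OH-tamoxifen, which lets the Cre recombinase made by Lgr5-expressing stem cells switch a membrane reporter to GFP in them and their offspring. Mice 1 to 4 were traced for 48 h and mice 5 to 8 for 72 h. From each mouse, cells with high GFP (clones) and without GFP (control) were sorted from crypts after the villi had been scraped off, and each mouse carried its own hashtag antibody. Pool 1 held the control cells of mice 1, 2, 5 and 6 and the clones of mice 3, 4, 7 and 8, and pool 2 held the opposite gate of each mouse. EGFP from the Lgr5 allele and GFP from the reporter fluoresce alike, so a cell sorted as a clone may carry either. An Lgr5 UMI was found in 50.3% ± 8.26 of clone cells and 29.3% ± 6.11 of control cells at 72 h (SD, n = 4 mice each). The enterocytes comprised 132 control cells and 40 clone cells, 88 of them among the 1134 cells of pool 1 and 84 among the 877 of pool 2. They had a median of 23485.5 UMIs (1089 to 66238), 4564 genes and 7.46% mitochondrial UMIs, against 19087 UMIs in the 1839 other cells. In the clones of mouse 3 the median cell had only 1638 UMIs. The pools shared 1 barcode sequence, and it did not pass in both. Xist and Ddx3y were read in the 4 mice with enterocytes in both gates and at least 4 clone enterocytes, and sorted both gates alike in mice 5, 7 and 8. Xist was at 727 and 124 CPM in control and clone enterocytes of mouse 3 and at 598 and 527 in mouse 8, where Ddx3y was at 0. The clone enterocytes of mouse 3 held only 8055 UMIs in all, too few for their value to show a match. Ddx3y was at 27.3 and 53.9 CPM in mouse 5 and at 16.8 and 87.1 in mouse 7, where Xist did not pass 14.5. CPM here is a gene's UMIs per 1000000 UMIs of the summed cells.

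Enterocytes arise from dividing progenitors at the top of the crypt, move up the villus in a few days and are shed at its tip, changing their genes on the way. Those of the distal small intestine, the ileum, carry the route for bile acid recovery. Slc10a2 takes bile acids up from the gut, Fabp6 binds them inside the cell, Slc51a and Slc51b together export them towards the blood, and Nr1h4, the bile acid receptor FXR, switches on several of these genes when bile acids are present. Sis, Enpep and Dpep1 encode enzymes of the brush border, the microvillus layer that digests sugars and peptides, and Mttp loads lipid onto lipoprotein particles.

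The upstream sequences of Fabp6 and Slc51b are shown because both genes were among those named for their large differences and both hold the inverted repeat, spaced by 1 base, that FXR is known to bind. They come from RefSeq (GRCm38.p6), read 5′ to 3′ on the minus strand of each gene, with the repeat in capitals.
Fabp6, chr11:43601563-43601812 (the 250 bases before the RefSeq start): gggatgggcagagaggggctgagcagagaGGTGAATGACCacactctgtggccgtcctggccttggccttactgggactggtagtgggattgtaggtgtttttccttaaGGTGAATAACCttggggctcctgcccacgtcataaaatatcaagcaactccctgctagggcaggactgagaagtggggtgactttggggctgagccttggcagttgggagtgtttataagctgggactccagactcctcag
Slc51b, chr9:65422939-65422968 (30 bases around the repeat): cattcgtggGGTCATTCACCctggactggc
The word searched was GGTNA, any 1 base and the reverse complement TNACC, on both strands and in the 300 bases from 250 before to 50 after a start. Fabp6 held it at -221 to -211 and again at -141 to -131 from its start, and Slc51b at -186 to -176. In Slc51b the word spans the end of the longer GENCODE gene model at position 65422955, since RefSeq puts the start further inside. Of 32851 promoters in the RefSeq table, 86 (0.262%) held the word. Of the 17 marker and bile acid genes looked up, 14 had a promoter in the table, and the word was in none of the other 12. The word CAAAGTC, known for the enterocyte factor HNF4 and found in 4.44% of promoters, was in Fabp6 and Slc51a. The word TTTATNG, known for the intestinal factor CDX and found in 10.9%, was in Slc10a2 and Sis. A match is a run of letters and shows no binding, and a missing match concerns this window alone.

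The 6 marker genes were set by the choice and are given as a description only. Sis had a UMI in 87.2% of enterocytes and 13.3% of other cells, Enpep in 85.5% and 15.5%, and Mttp in 76.2% and 20.2%. Dpep1 was found in 56.4% and 3.92%, Chp2 in 78.5% and 9.84%, and Maf, a transcription factor, in 75.6% and 11.4%. Each marker was thus missing from some members, and 69 of 172 enterocytes had all 6, 39 had 5, 20 had 4, 13 had 3 and 31 had 2. The cells just inside the limit, with 2 markers, had Fabp6 at 1364 CPM and a median of 11239 UMIs. The 77 cells with 1 marker that met every other limit had Fabp6 at 517 CPM and a median of 13889 UMIs. Members with all 6 had Fabp6 at 23748 CPM and a median of 30661 UMIs, so the number of markers found moved with depth.

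The label was then checked against markers of other cells. In 6 members the 15 enteroendocrine genes (hormone-making cells) held 2.64% to 12.6% of UMIs, and in 3 members the 13 tuft cell genes (chemosensory cells) held 1.17% to 2.12%. These 9 cells were all control cells, 8 had only 2 markers, and none had Fabp6 above 803 CPM. The 9 cells were set apart by a limit of 0.5% of UMIs for either list, chosen after the data were seen. The other 163 members lie under it by construction, with highest shares of 0.193% and 0.392%. The rule sets no limit on either type, so the 9 cells stay members, and results are given without them where they matter. Over all 4081271 UMIs of the 172 cells, all 5 erythroid genes were at 0. In the immune list 10 of 13 genes were at 0, among them Cd3g, Cd8a, Cd79a and Lyz2. Cdh5 and Kdr of the 7 endothelial genes and Col1a1, Col3a1 and Pdgfra of the 9 stromal genes were at 0 too, with 4 and 7 genes of those lists at 0 in all. The stromal list had 78 UMIs, 64 of them of Vim, a filament protein of mesenchymal and other cells. Against other control cells Vim differed by 1.59 ± 0.72 (log2, SE) and was not called, and against dividing cells without Lgr5 it was higher by 5.86 ± 0.71, in 4 of 6 mice. Of 8 genes listed for M cells, which pass antigens to immune cells, Gp2 was at 0, and Pglyrp1 gave 1687 of 1919 UMIs. By these lists the members held few UMIs of immune, endothelial, stromal or erythroid genes, which alone does not show that they are enterocytes. Goblet and Paneth genes were kept low by the rule, and enteroendocrine and tuft genes of the 163 by the added limit. The other 9 carry the genes of another epithelial type. Among the 163, 5 had no Fabp6 UMI, and members low in Fabp6 are described below.

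Enterocytes made up a smaller share of the cells in the clones than in the control cells of the same mouse, in 8 of 8 mice. Mice 1 and 4 gave only 4 and 8 clone cells, with 0 enterocytes among them. At 72 h they were 2.45%, 2.70%, 3.54% and 7.58% of the clone cells of mice 5 to 8 (4 of 163, 1 of 37, 4 of 113 and 26 of 343 cells). In the control cells of those mice they were 10.1%, 8.96%, 8.54% and 13.1% (25 of 247, 12 of 134, 7 of 82 and 24 of 183). The highest clone share lay under the lowest control share. The means were 4.07% ± 2.39 and 10.2% ± 2.07 (SD, n = 4 each), and an exact two-sided permutation test gave p = 0.0286, the smallest it can give, or 0.0714 after adjustment over the 5 comparisons of shares. That test ignores the pairing, and exact sign flips within the 4 mice gave p = 0.125, the smallest they can give. At 48 h the clone shares of mice 1 to 4 were 0 of 4 cells, which allows up to 75%, 5.56% (1 of 18), 8.70% (4 of 46) and 0 of 8, which allows up to 37.5%. The control shares were 7.24% (11 of 152), 6.59% (6 of 91), 11.4% (26 of 228) and 13.0% (21 of 162), and the groups overlapped. The means of 3.56% ± 4.31 and 9.55% ± 3.12 (SD, n = 4 each) gave an exact permutation p of 0.114 (adjusted 0.190), on few clone cells. Sign flips within these 4 mice gave an exact p of 0.125. Limits for a count of 0 and the intervals in the plot cover counting error only.

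Over both times the shares were 3.82% ± 3.24 in clones and 9.87% ± 2.47 in control cells (SD, n = 8 mice each), a difference of -6.05 percentage points. The exact permutation p was 0.00186 (adjusted 0.00932), and exact sign flips within the 8 mice gave 0.0078, the smallest they can give. Both tests count each share alike, whatever its number of cells. The clone shares of mice 1 and 4, from 4 and 8 cells, would often be 0 at their control shares as well. Without the 9 enteroendocrine and tuft cells the difference was -5.34 points in 7 of 8 mice (adjusted exact permutation p = 0.0202). The choice rests on single UMIs, so each cell was also thinned to a fixed depth before it was applied. At 2000 UMIs 27 of 683 clone and 91 of 1248 control cells were chosen, and the difference of -3.66 points was no longer called (adjusted exact permutation p = 0.125, 6 of 8 mice lower). At 4000 UMIs, with 36 of 658 and 125 of 1218 cells, it was -6.46 points (adjusted exact permutation p = 0.0194, 7 of 8 mice lower). Within pool 1 the shares were 4.95% ± 3.98 and 8.23% ± 1.61, and within pool 2 2.68% ± 2.27 and 11.5% ± 2.12 (SD, n = 4 clone and 4 control samples each). The clone-control difference was -6.11 points at 72 h and -5.99 at 48 h and was not shown to differ between times (exact permutation p = 0.971). Between times, the shares did not pass in clones (exact permutation p = 0.857) or in control cells (exact permutation p = 0.714). Other classes of cells in the 2 gates were these: cells over the goblet limit were 12.8% ± 7.34 of clones and 22.6% ± 7.96 of control cells at 72 h (SD, n = 4 mice each). Cells over the division limit were 32.4% to 57.1% of clones and 38.8% to 52.6% of control cells of those mice. The rule also bars cells with an Lgr5 UMI, which were more frequent in clones on average, so the share is tied in part to that limit. Before the other limits, cells with at least 2 markers were 15.4% ± 4.91 of clones and 26.0% ± 4.25 of control cells at 72 h. At 48 h they were 9.47% ± 7.10 and 21.6% ± 3.15 (SD, n = 4 mice each). The part of GFP sorting for stem cells and of the Lgr5 limit in the share was not tested.

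**Figure D1:**
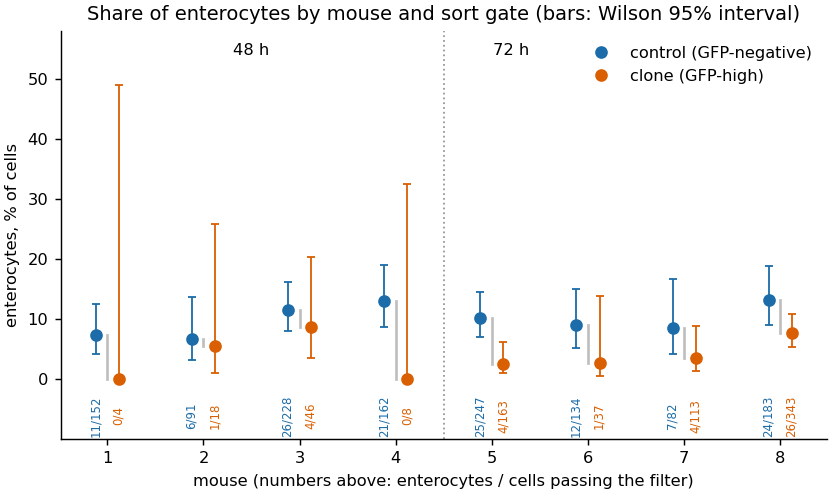
Share of enterocytes among cells passing the filter (vertical axis, %) for each of the 8 mice (horizontal axis), in control and clone cells, with Wilson 95% intervals and the counts behind each share. The clone point lies below the control point of the same mouse in 8 of 8 mice, and the clone intervals at 48 h are wide because few clone cells passed.

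Enterocytes were set against all other control cells of the same mouse to describe them beyond the markers. The 6 mice with at least 10 control enterocytes entered (1, 3, 4, 5, 6 and 8). Because the cells were chosen by genes that go with many others, this comparison describes the chosen cells and supports nothing by itself. Of 10237 genes tested, edgeR with mouse as a block placed 18.8% higher and 20.5% lower at an adjusted p under 0.05, the 16 genes of the rule left out, with a median log2 difference of -0.06. The counts of genes below stand beside those shares, and nothing is read from them about the choice. Differences are log2 fold changes with a standard error (SE) worked back from the F value of the test, whose spread is shared in part across genes. Levels are the lowest, median and highest of all 8 control mice.

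All 10 tested ileal bile acid genes were higher (median 2.22). Among genes not used for the choice and with a mean log2 CPM of at least 5, Slc10a2, Fabp6, Slc51b and Slc51a were 4 of the 5 with the largest differences. Scarcer genes differed more, such as the brush border enzyme Ggt1 (5.79 ± 0.64, at 18.1 ± 14.4 against 0.312 ± 0.230 CPM, SD over 6 mice). The uptake transporter Slc10a2 was at 19.4, 87.2 and 245 CPM in enterocytes and at 0, 2.76 and 9.17 in other cells, a difference of 4.66 ± 0.31. Fabp6 was at 7159, 17161 and 39431 CPM against 275, 694 and 1217, a difference of 4.29 ± 0.11. Neither gene overlapped between the groups of cells. Slc51a was at 294, 448 and 721 CPM against 13.1, 23.8 and 42.2 (4.06 ± 0.13), and its partner Slc51b at 258, 400 and 724 against 13.6, 20.3 and 27.2 (4.26 ± 0.12). The receptor Nr1h4 was at 89.4, 145 and 175 CPM against 21.7, 38.0 and 63.0 (1.95 ± 0.13), again with no overlap. Fgf15, the hormone that carries the bile acid signal to the liver, was low at 0, 12.7 and 39.0 CPM, with a UMI in 12.9% of control enterocytes, and was higher in only 3 of the 6 mice. These genes lie on different chromosomes (Fabp6 at chr11:43596049-43601540, Slc10a2 at chr8:5083219-5105351, Slc51a at chr16:32474504-32487879, Slc51b at chr9:65412714-65422955, Nr1h4 at chr10:89454234-89533585, GENCODE M21, all on the minus strand).

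Fabp6 was also counted outside enterocytes, at lower levels. In dividing cells without Lgr5 it was at 764, 1395 and 5391 CPM, in non-dividing cells with Lgr5 at 54.9, 106 and 1127, and in cells over the goblet limit at 49.9, 60.6 and 132. A Fabp6 UMI was found in 69.9% of the goblet-limit cells at a median of 27440 UMIs, against 94.7% of control enterocytes at 22572 UMIs. Free RNA can add UMIs of abundant genes to other cells, and its part here was not tested. Slc10a2 had a UMI in 44.7% of control enterocytes and 1.84% of goblet-limit cells. The order of Fabp6 levels was read from CPM, which free RNA can also raise, and in CPM enterocytes and dividing cells did not overlap. The neighbours below them overlapped. By mouse, control enterocytes had Fabp6 at 18936, 39431, 16424 and 23605 CPM in mice 1 to 4 and at 7174, 7159, 17898 and 16413 in mice 5 to 8, with mice 5 and 6 lowest.

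**Figure D2:**
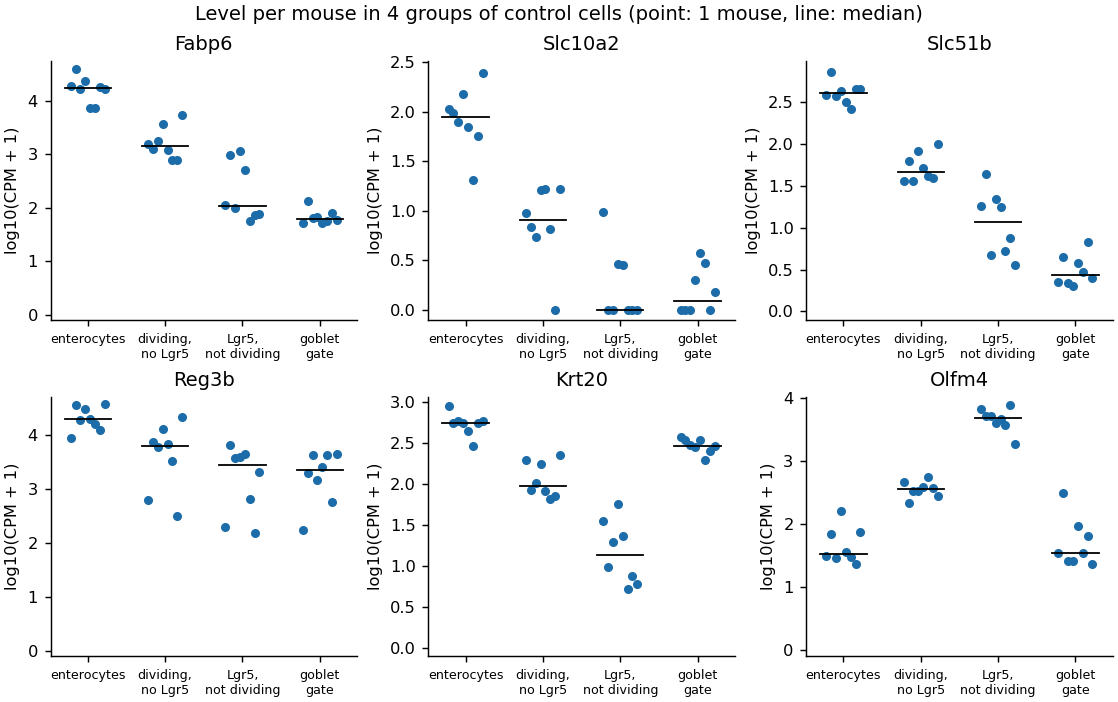
Levels of 6 genes (log10 of CPM + 1, 1 point for each of 8 mice, line at the median) in 4 groups of control cells. Fabp6, Slc10a2 and Slc51b are highest in enterocytes in all mice, Reg3b overlaps between groups, Krt20 is also present in goblet-limit cells, and Olfm4 is highest in non-dividing cells with Lgr5.

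Brush border enzymes were higher as well, in 12 of 12 tested genes (median 3.21), beside the background of 18.8%. Anpep, an aminopeptidase, was at 9.72, 248 and 397 CPM in the 8 control mice against 3.21, 6.09 and 18.2 in other cells (4.28 ± 0.24). Mouse 6 was the low value, with the other mice at 149 or more. The meprin subunits Mep1b (3.81 ± 0.13) and Mep1a (3.49 ± 0.15) and the peptidase Naaladl1 (2.93 ± 0.13) followed, while the starch enzyme Mgam differed little (0.61 ± 0.15). Lct, the lactase of the upper intestine, had 0 UMIs in all 132 control enterocytes, as had the sugar exporter Slc2a2. Among structural genes of the microvillus 16 of 19 were higher and 1 lower (median 0.93). The keratins Krt19 (4661 ± 156 against 1230 ± 86.3 CPM, SD over 6 mice, 2.00 ± 0.07) and Krt8 (1.38 ± 0.06) were higher, and Krt18, which pairs with Krt8, was lower (-1.02 ± 0.10). Vil1, which bundles actin in the microvillus core, was higher by 0.93 ± 0.10. Krt20, a keratin of mature surface cells, was at 292, 559 and 891 CPM against 89.3, 142 and 237 (1.93 ± 0.10).

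Genes of nutrient uptake differed among themselves. Sugar, peptide and amino acid transporters were higher in 12 of 15 genes (median 1.89), among them the cystine carrier Slc7a9 (3.20 ± 0.17) and the sodium-glucose carrier Slc5a1 (1.89 ± 0.18). All 5 tested genes of the list for vitamin B12 and folate uptake were higher, among them Slc52a3, which carries riboflavin instead. Others were Amn (1.99 ± 0.19), which anchors the B12 receptor, and Tcn2 (1.47 ± 0.15), which binds B12 for export. In the lipid list 15 of 19 were higher and 2 lower (median 1.58). Apob, the protein core of chylomicrons, was at 201 ± 34.9 against 52.7 ± 12.8 CPM (SD, 6 mice; 2.00 ± 0.13). Apoa1, another chylomicron protein, differed by 4.14 ± 0.37 and ranged from 9.72 to 1090 CPM among mice. The classical fatty acid binders did not follow: Fabp2 was lower (189 ± 38.3 against 313 ± 105 CPM, -0.62 ± 0.15), and Fabp1 was near 0 in both (3.62 ± 3.54 and 1.34 ± 2.21 CPM). Apoa4, abundant in the upper intestine, did not exceed 3.25 CPM in any control mouse. Ion transporters were higher in 11 of 14 and lower in 1, with the sulfate carrier Slc13a1 at 3.92 ± 0.19. The carbonic anhydrase Car4 differed by 4.01 ± 0.16 and the glutathione transferase Gsta1 by 3.81 ± 0.18, the latter 1 of 18 higher among 22 genes of drug metabolism (median 2.05).

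Lists for the height on the villus differed in their counts. Of 14 genes of the villus base, 13 were higher and 1, Ifitm3, lower (median 2.19). They include the antimicrobial lectins Reg3b (8685, 19401 and 37967 CPM against 332, 3862 and 7304, 2.88 ± 0.20) and Reg3g (2.02 ± 0.11), and Lypd8 (0.99 ± 0.08), which keeps bacteria off the surface. Of 9 genes of the villus middle 8 were higher, among them Slc7a9 and Slc5a1 named above. All 8 but Acsl5 are also counted in the list of sugar, peptide and amino acid transporters. Of 12 genes of the villus tip 4 were higher and 4 lower (median -0.45). The higher ones were Ceacam20, Pmp22, Krt20 and Cdkn1a, and the lower ones Ada, Klf4, Neat1 and Fos. The tip purine enzymes Ada and Nt5e were at 3.25 and 8.49 CPM at most. In the list for the base the 2 lectins gave most of the summed level, which was 19242, 36639 and 63711 CPM.

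Genes of crypt cells were lower. Stem cell markers were lower in 11 of 12 tested genes (median -1.98) and Wnt targets in 11 of 11 (median -2.03), beside the background of 20.5%. The stem cell gene Olfm4 was at 58.7 ± 51.0 against 1414 ± 309 CPM (SD, 6 mice; -4.54 ± 0.28), and Slc12a2, a chloride carrier of crypt cells, at 46.0 ± 17.6 against 787 ± 202 (-3.99 ± 0.14). All 18 genes of DNA replication (median -2.41) and all 18 of mitosis (median -4.26) were lower, which the limit on Mki67 and Top2a set in part. Secretory progenitor genes were lower in 9 of 10, with the Notch ligand Dll1 at -2.88 ± 0.32, and the other goblet (9 of 9) and Paneth (8 of 8) genes were lower as the limits on those cells require. The 5 enteroendocrine genes that were higher (Ghrl, Cck, Scg5, Neurod1 and Cpe) stand beside the 6 enteroendocrine members: the summed level of the list was 29.1, 1418 and 12009 CPM with the 9 cells of other types and 29.1, 73.8 and 203 without them.

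Transcription factors of the absorptive lineage were mixed, with 8 of 19 higher and 2 lower (median 0.37). Hnf4g (181 ± 34.7 against 67.9 ± 16.0 CPM, SD, 6 mice) was higher by 1.49 ± 0.12. Its relative Hnf4a (173 ± 47.1 against 155 ± 17.8 CPM) differed by 0.20 ± 0.11 and was not called. Cdx2, which sets intestinal identity, was higher by 0.64 ± 0.13 and Klf5, an epithelial factor, by 0.40 ± 0.10, while Hes1, the Notch target that favours absorptive fate, was lower (-0.41 ± 0.13). No Notch gene was higher and 5 of 9 were lower. Of 8 BMP response genes 3 were higher, 1 lower and 4 not called (median 0.56). Id1 (0.88 ± 0.16), Id3 (1.12 ± 0.16) and Smad7 (0.97 ± 0.21) were higher, and Id4 was lower, with 0 UMIs in the enterocytes of the 6 mice against 27.5 ± 12.5 CPM (SD) in other cells.

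**Figure D3:**
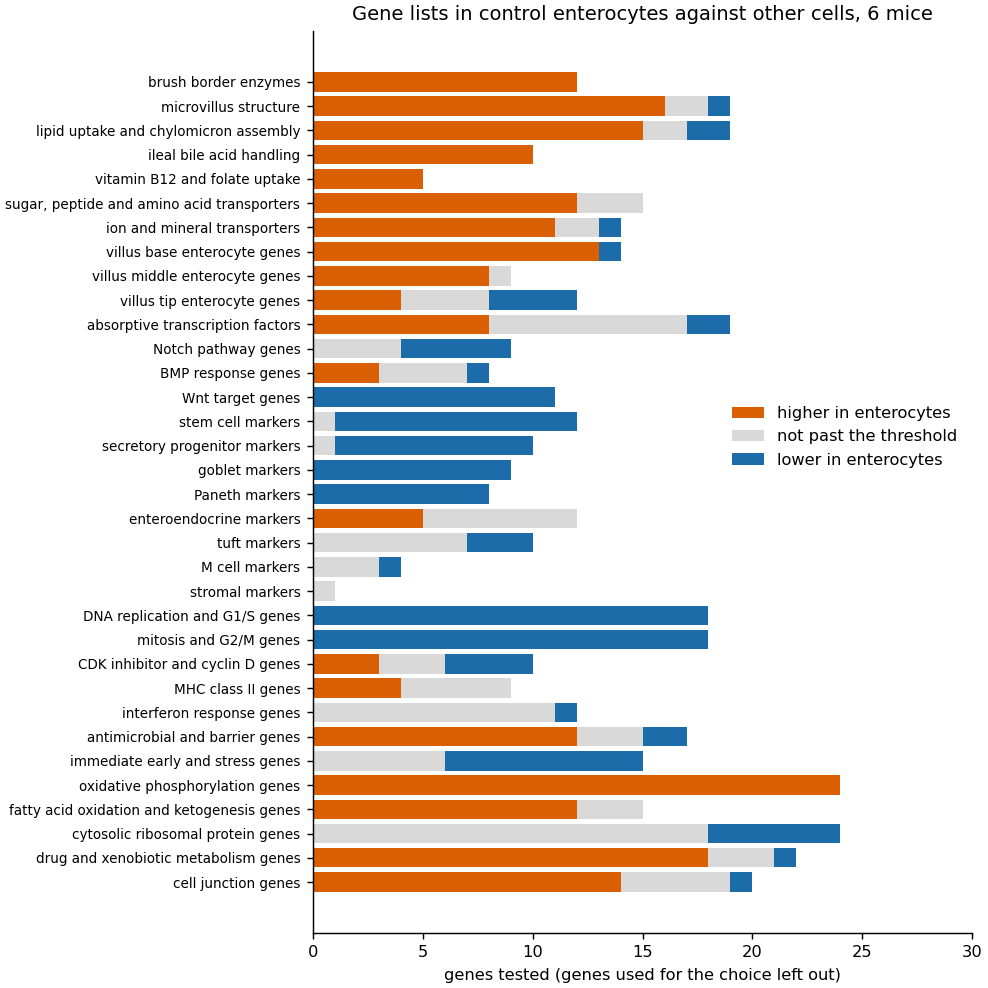
Number of tested genes of each list (horizontal axis) that were higher, lower or not past the threshold in control enterocytes against other control cells of 6 mice, genes of the rule left out. The brush border, bile acid, vitamin and oxidative phosphorylation bars hold only higher genes, and the Wnt, replication, mitosis, goblet and Paneth bars only lower ones.

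The nearest cells upstream are dividing cells without Lgr5, of which there were 521, and against them 17.9% of 8124 genes were higher and 19.5% lower. Crypt and secretory genes differed here too: goblet genes were lower in 8 of 8 (median -3.37), secretory progenitor genes in 6 of 9 (median -2.20), stem cell markers in 9 of 11 and Wnt targets in 6 of 6. Of the bile acid genes 9 of 10 were higher (median 1.37, Fgf15 not called). Fabp6 was at 14952 ± 6577 against 2377 ± 1779 CPM (SD, 6 mice; 2.93 ± 0.16), Slc10a2 differed by 3.42 ± 0.22, Slc51b by 2.89 ± 0.14 and Slc51a by 2.65 ± 0.13. Brush border genes were higher in 10 of 11 (median 2.37). Villus base genes were higher in 11 of 14 with 1 lower (median 1.37), and villus tip genes in 5 of 9 with 1 lower (median 1.65). Il18, a cytokine of the epithelium, differed by 3.20 ± 0.24, and Ceacam20, a microvillus adhesion protein, by 2.74 ± 0.21. Hnf4a (-0.07 ± 0.12), Cdx2 (0.28 ± 0.12), Gpx2 (0.11 ± 0.08) and Fabp2 (-0.07 ± 0.11) were not called. Enteroendocrine genes were higher in 11 of 12 (median 5.29), a list whose summed level moved with the 6 enteroendocrine members. Gcg differed by 7.77 ± 0.57 and was higher in 4 of 6 mice. Chga, a granule protein, differed by 4.36 ± 0.57 and was at 427 ± 674 CPM, a spread larger than its mean.

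The clones of 72 h gave the same contrast in other cells, and since a mouse's clone and control cells were in opposite pools, in another library. Sums of at least 4 cells had to be used, a minimum chosen after the data were seen, which left mice 5, 7 and 8 with 4, 4 and 26 enterocytes. Of 9458 genes 11% were higher and 14.3% lower. Of the bile acid genes 8 of 10 were higher (median 3.41). Fabp6 was at 5655, 30098 and 14749 CPM in the clone enterocytes, 16834 ± 12354 against 282 ± 265 in other clone cells (SD, 3 mice; 5.91 ± 0.34). Slc51a differed by 5.44 ± 0.25, Slc51b by 5.16 ± 0.25, Slc10a2 by 5.61 ± 0.35 and Slc13a1 by 4.78 ± 0.32. Without mouse 8, which held most of the cells, the count was 650 (348 of them higher), where all 3 mice gave 1042 higher and 1349 lower.

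Enterocytes varied widely among themselves in Fabp6. Over the 163 members without the 9 cells of other types, Fabp6 per cell had a median of 10714 CPM and ran from 0 to 100821. Of these, 5 had no Fabp6 UMI, 140 were at 1000 CPM or more and 85 at 10000 or more. The members were put in order of Fabp6 and split into 4 groups of 41, 41, 41 and 40 cells from 7 or 8 mice each, as a description with no test. Median depth was 21256, 23013, 29555 and 26325.5 UMIs and median mitochondrial share 8.13%, 7.68%, 6.84% and 7.90% in the 4 groups. The median number of the markers used for the choice was 3, 5, 6 and 6, so the first group held members nearer the limit. The part of depth and of marker number in what follows was not tested. Values below are CPM of the summed cells, from the first (lowest) to the fourth (highest) group.

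The bile acid transporters were higher in each further group, and the receptor Nr1h4 was highest in the third (92.9, 169, 211 and 170 CPM). Slc10a2 went from 10.9 to 34.5, 113 and 342 CPM, Slc51a from 141 to 300, 506 and 858, and Slc51b from 118 to 231, 410 and 816. Brush border genes followed the same order, with Anpep at 20.8, 50.8, 188 and 600 CPM and Mep1b at 59.0, 120, 218 and 527. Apoa1 was at 9.83, 21.3, 26.6 and 400 CPM, so most of it lay in the last group. Krt20 (255, 360, 572 and 811 CPM) and Reg3b (13266, 26386, 29344 and 35983 CPM) were also higher in each further group. In the other direction Olfm4 was at 321 CPM in the first group and at 25.4, 29.4 and 27.2 in the others, while Slc12a2 was at 163, 32.5, 15.2 and 3.02 CPM. Npm1, a nucleolar protein of ribosome assembly, was at 1047, 610, 412 and 221 CPM, and the summed ribosomal protein genes at 78245, 65585, 59164 and 45202. The goblet list was at 1863, 386, 357 and 386 CPM and the Paneth list at 245, 87.4, 68.3 and 78.5, so both were highest in the first group. Whether these UMIs came from few or many of its cells was not tested.

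Several genes were flat along the order. Hnf4a was at 151, 202, 172 and 175 CPM, Gpx2 at 1051, 1226, 975 and 1192, and the oxidative phosphorylation genes summed to 17043, 18952, 18247 and 19844. The immediate early gene Jun was at 796, 835, 851 and 399 CPM, lower in the last group alone. The order was then read within each of 7 control mice, comparing its cells of the upper 2 and lower 2 groups. Slc51a, Slc51b, Mep1b, Slc13a1, Reg3b and Nr1h4 were higher in 7 of 7 mice and Slc10a2, Anpep, Apoa1 and Krt20 in 6 of 7, while Olfm4, Slc12a2 and Npm1 were lower in 7 of 7. Gpx2 was higher in 3 of 7 and Hnf4a in 2 of 7. Only a chosen set of genes was read this way, and the share of all genes with such counts was not computed. The counts are therefore a description and are not set against a background. The groups held 14, 12, 10 and 21 control cells of 48 h, 20, 18, 16 and 12 control cells of 72 h, and 6, 10, 13 and 6 clone cells of 72 h, so each of these sets of cells was spread over all 4. The 5 clone cells of 48 h lay 1, 1, 2 and 1.

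**Figure D4:**
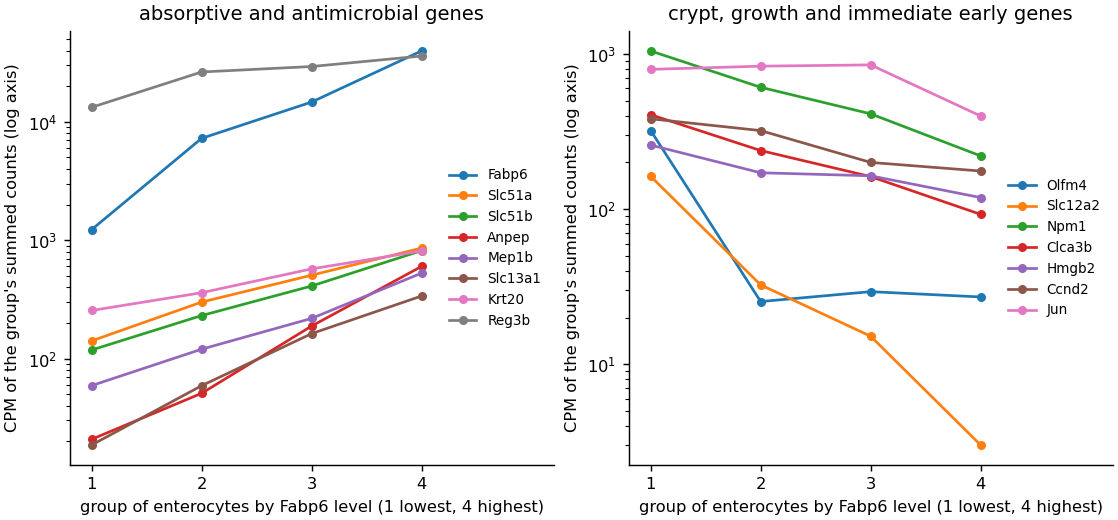
Level (CPM of summed counts, log axis) of absorptive and antimicrobial genes (left) and of crypt, growth and immediate early genes (right) in 4 groups of 163 enterocytes ordered by Fabp6. Anpep goes up from 20.8 to 600, Olfm4 drops after the first group, and Jun is lower in the last group.

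Whether enterocytes of labelled clones differ from unlabelled ones was tested at 72 h, again with sums of at least 4 cells (clones of mice 5, 7 and 8 against control cells of mice 5 to 8, pool as a covariate). Of 4326 genes tested by edgeR, 0% were higher and 0% were lower at an adjusted p under 0.05, and 85 had an unadjusted p under 0.05. DESeq2 called 1 gene (Rab3c), the fit with mouse as a block 1 (Chga), and the fit without mouse 5 1 (S100a6). The bile acid genes overlapped between gates. Fabp6 was at 5655, 30098 and 14749 CPM in clones and at 7174, 7159, 17898 and 16413 in control cells, a difference of 0.32 ± 0.52 (log2, SE; adjusted p = 0.99999). Slc51a (0.25 ± 0.37), Slc51b (0.08 ± 0.37), Slc10a2 (0.70 ± 0.63), Reg3b (0.16 ± 0.49) and Krt20 (0.02 ± 0.36) were not called either.

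The 5 genes of lowest p in that comparison were Olfm4, 2210407C18Rik, Trap1, Chga and Acbd3, none called (adjusted p = 0.99999 in edgeR). Olfm4 was at 1058, 116 and 38.5 CPM in clones of mice 5, 7 and 8 and at 35.3, 29.2, 22.4 and 74.3 in control cells (2.83 ± 0.70). The high value was that of mouse 5, from 4 cells, and the groups overlapped. The mitochondrial chaperone Trap1 was at 67.1 ± 22.2 against 37.5 ± 11.7 CPM (SD). Acbd3, a Golgi protein, was at 171 ± 15.4 against 107 ± 17.7 CPM (SD, 3 and 4 mice) with no overlap (0.65 ± 0.20). Chga had 0 UMIs in clones and 508 ± 840 CPM in control cells, and the enteroendocrine members were all control cells. At 48 h, clone enterocytes were 5 cells in mice 2 and 3, and no test was made. In mouse 3 the 4 cells, with only 8055 UMIs in all, had Fabp6 at 14649, Reg3b at 21229 and Olfm4 at 1241 CPM. Its control enterocytes had 16424, 19227 and 27.6.

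**Figure D5:**
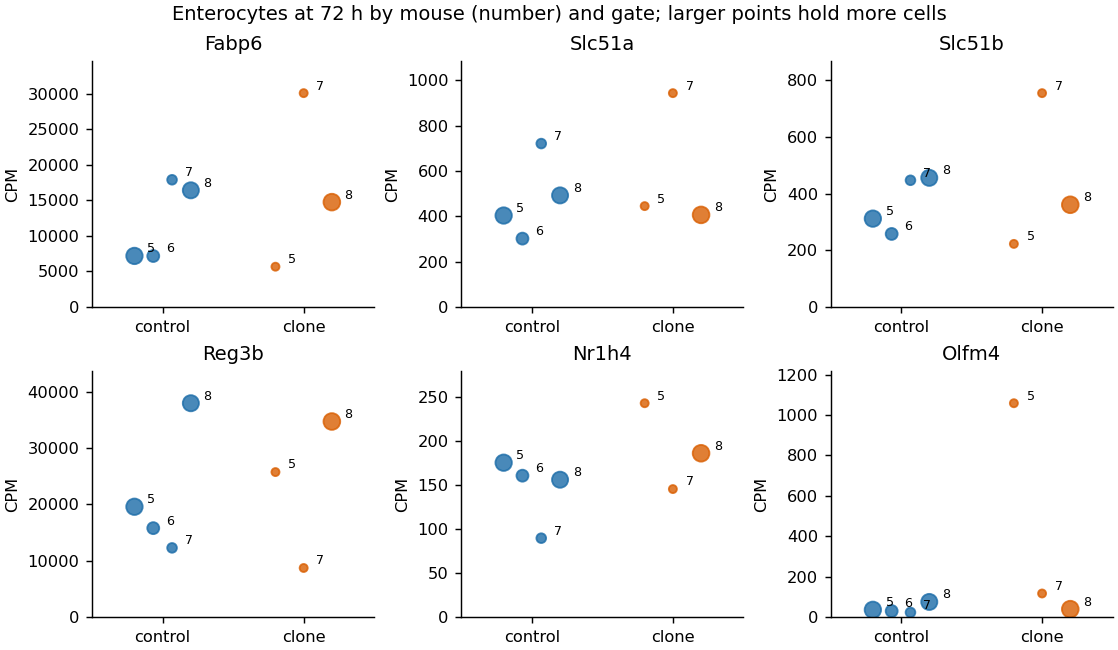
Levels of 6 genes (CPM) in enterocytes of the 72 h mice, control and clone, 1 point for each mouse with its number, larger points for more cells. Fabp6, Slc51a, Slc51b and Reg3b overlap between gates, and the clone value of Olfm4 in mouse 5 (1058) lies far above the rest.

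Control enterocytes of the 72 h mice (5, 6 and 8) were set against those of the 48 h mice (1, 3 and 4), which are different animals. Of 6449 genes, 1 was higher (0.0155%) and 4 were lower (0.062%) at 72 h by edgeR, and 242 had an unadjusted p under 0.05. The 4 lower genes were hormones or granule proteins of enteroendocrine cells. Gcg, which encodes glucagon-like peptides, was at 1341, 209 and 1702 CPM at 48 h and at 3.21, 4.86 and 0 at 72 h (-8.99 ± 1.01, adjusted p = 0.00305). Cck was at 616, 13.0 and 11.8 CPM against 32.1, 19.4 and 0 (-4.35, adjusted p = 6.36e-05) and Sct at 1180, 102 and 73.4 against 24.1, 92.3 and 11.6 (-4.14, adjusted p = 0.00144), and both overlapped between times. Scg2 had 0 UMIs at 72 h (-7.83, adjusted p = 0.00785). Cck, Sct and Scg2 fall outside the naming rule and were named after their values were seen. Of the 6 enteroendocrine members, 4 were at 48 h in 3 mice and 2 at 72 h in 2 mice. With sums of at least 4 cells 0 genes were called (191 with an unadjusted p under 0.05), and 0 again when the 9 cells were left out as well (134 of 3777 genes with an unadjusted p under 0.05).

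The 1 gene that rose at 72 h was Hspa1b, an inducible heat shock protein whose reads can be shared with its near-identical neighbour Hspa1a. It was at 4.24, 13.0 and 18.9 CPM at 48 h and at 32.1, 29.2 and 122 at 72 h (2.97 ± 0.34, adjusted p = 0.00305). Mouse 2, with 6 enterocytes and outside the fit, was at 86.8 CPM at 48 h, above 2 of the 72 h mice, and mouse 7 was at 157. Leaving out mouse 5 left 1 call, Sct, and leaving out mouse 8 gave 28. Fabp6 was at 19655 ± 3644 CPM at 48 h and 10249 ± 5338 at 72 h (SD, 3 mice each) without overlap in the fit, a difference of -0.79 ± 0.22 that was not called (adjusted p = 0.841), and mouse 7 at 17898 lay among the 48 h values. Each pool held 1 or 2 of these mice at each time, so pool entered as a covariate and no value within a pool was tested. Beyond the 3 enteroendocrine markers lower and 1 stress gene higher, no list had a called member.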

How the data were processed

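RNA was measured in single epithelial cells from the distal small intestine of 8 mice, in 2 pools. The deposited matrices hold integer UMI counts of 32285 genes and 8 hashtags per barcode, written by Cell Ranger 6.1.2 per the file headers, on mm10 per the submitters' processing notes. The authors' cell filters and hashtag caller are not given in the sources used here. Per the file headers the feature and barcode lists hold identifiers and symbols, not measurements. Of 5452 barcodes, 4333 had at least 1000 UMIs, 4149 also at least 500 genes, 2416 also under 20% mitochondrial UMIs and 2011 also 1 hashtag with at least 60% of hashtag counts. The top hashtag gave the mouse, and hashtag with pool gave the gate. Mixed hashtags removed pairs of cells from different mice; no doublet caller was run.

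The members and gene lists were chosen with earlier results of these data known. The mouse was the replicate. Shares were compared by exact permutation tests and exact sign flips within mice. Counts were summed per mouse, gate and class of at least 10 cells (4 where stated, chosen after the data were seen) and, after TMM scaling and the filterByExpr filter, fitted by edgeR's two-sided quasi-likelihood test (version 4.0.16 under R 4.3.3), with Benjamini-Hochberg adjustment over all genes tested and a threshold of 0.05. Enterocytes against other cells had mouse as a block. Clone against control and 72 h against 48 h had pool as a covariate. Both sums of a mouse come from 1 animal, which pairs them: across 10253 genes the correlation of their deviations was -0.04 to 0.23 over 6 mice, and 4 of 6 matched their own mouse best. DESeq2 1.42.0, other filters and limits, thinning and leaving out mice were alternatives. The script was tested on simulated counts.

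Among genes called with 1 direction in every mouse (or no overlap) and a mean log2 CPM of 5 or more, those named were the 15 with the largest rise and 10 with the largest fall, or the 5 of lowest p where fewer than 5 were called, together with 30 fixed genes and, from each list, the 3 of highest level. The text prints those its results turn on. Positions are from GENCODE M21, in which 121 of 121 looked-up genes were found under the same name. Depth and pool limits are given beside the results. The edgeR p-values rest on the spread between these mice, shared in part across genes. Genes that overlapped between groups could therefore be called.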

Additional observations from a re-analysis of the deposited data

Results flagged for a closer look

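Of 68 groups of 4 mice (shares, 20 genes and the gene lists in control enterocytes), 7 held a mouse farther from the others than Dixon's 95% limit allows, where chance gives about 5%. Slc51b at 48 h was at 724 CPM in mouse 2, against 375 to 421 in the others. Krt20 at 48 h was at 891 CPM in mouse 1, against 556 to 586. Hnf4g at 48 h was at 216 CPM in mouse 1, against 144 to 149. Apoa1 at 72 h was at 1090 CPM in mouse 7, against 9.72 to 51.4. The lipid list at 72 h summed to 3421 CPM in mouse 7, against 1162 to 1380, and this mouse gave only 7 control enterocytes. The villus base list at 72 h summed to 63711 CPM in mouse 8, against 28996 to 34876. The enteroendocrine list at 72 h summed to 8928 CPM in mouse 6, against 29.1 to 390.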

How the results depend on the processing

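Of 137 values of the main comparisons under other settings, 119 stayed within 1.5 times of the reported count or on the same side of the threshold, and the cause was not tested for the others. With a hashtag limit of 80%, 2471 genes were called in control enterocytes against other cells, where 4024 were reported, and 1920 against dividing cells, where 3039 were reported. The latter comparison gave 1759 with a mitochondrial limit of 10%. In 72 h clones, where 2391 were reported, DESeq2 called 1127, and leaving out 1 mouse gave 650 (without mouse 8) to 2410, with 1539 without mouse 5. Id1 there reversed to -0.16 without mouse 8. In clone against control enterocytes, where 0 genes were called, DESeq2 called 1, the fit with the replicate block 1, and leaving out 1 mouse gave 0 to 1. For 72 h against 48 h, where 5 were called, DESeq2 called 8, no filter on low counts 72, sums of 4 cells 0 with or without the enteroendocrine and tuft cells, and leaving out 1 mouse 1 to 28. The share over both times differed by -3.66 points at 2000 UMIs (adjusted exact permutation p = 0.125). Without the block, 3544 genes were called against other cells and 2325 against dividing cells, both within 1.5 times. Sign flips within mice left the shares on the same side of the threshold. The 72 h clones were not fitted without the block. The 72 h and 48 h mice are different animals, so no pairing exists there. Named genes kept their call and direction under every setting run in 97 of 125 against other cells, 94 of 123 against dividing cells and 80 of 119 in 72 h clones. Sums of 10 cells could not be fitted for the clones or their comparison with control cells, nor several stricter limits for the comparisons of small sums, and these were not run. Clones of 48 h were limited by 5 enterocytes.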

Other observations

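Mitochondrial genes were higher in control enterocytes of 6 mice against other control cells. All 24 tested genes of oxidative phosphorylation were higher (median log2 difference 0.77), for example Cox4i1, a subunit of cytochrome oxidase, at 1867 ± 94.6 against 1219 ± 80.7 CPM (SD; 0.70 ± 0.07, SE). In fatty acid oxidation 12 of 15 were higher (median 0.79), among them Hadh (1.14 ± 0.10) and Acadm (1.30 ± 0.12). Ribosomal protein genes went the other way in 6 of 24, with 18 not called (median -0.11). As for the other genes of this contrast, the choice of cells is tied to these values and they are given as a description beside the shares of 18.8% higher and 20.5% lower.

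Cell junction genes were higher in 14 of 20 and lower in 1, Cldn4, a claudin (median 0.59). Cdh17, an intestinal cadherin, differed by 0.91 ± 0.10 and Cldn7, a claudin of lateral membranes, by 0.62 ± 0.07. Among 9 genes listed for antigen presentation by MHC class II, 4 were higher and 5 not called. Of the 4, Cd74, the invariant chain, differed by 0.45 ± 0.10 and H2-DMa loads peptides, while H2-Q1 and H2-Q2 are class I genes. The class II chains H2-Ab1 (-0.17 ± 0.11) and H2-Eb1 (-0.19 ± 0.11) were not called. In the list of cyclin D and CDK inhibitor genes, Ccnd1 (0.47 ± 0.14), Cdkn1a and Cdkn2b were higher and Ccnd2 (-0.43 ± 0.15), Ccnd3, Cdkn1b and Btg2 (-0.64 ± 0.11) lower. Immediate early and stress genes were lower in 9 of 15, with Jun at -0.99 ± 0.10 and Fos at -0.74 ± 0.16.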
